A study of Mus musculus with 48 samples.

Results

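The genes Man1a, Mpped1, Gpr161, Fibcd1, Wfs1 and Pou3f1, in common use as markers of hippocampal CA1 pyramidal neurons, were followed across all libraries of a hippocampal RNA-seq study in mice. They were chosen by name, with earlier results of these data known, and all 6 were found by symbol among 57126 gene identifiers and were among the 16360 genes with enough counts to be tested. The study sampled the hippocampus of 48 mice of the outbred CD-1 stock at 2 months of age, in 8 groups of 6 by sex and by what their dams had drunk. Dams of the Pb groups drank water with 100 ppm lead, those of the Mn groups water with 2 g/L manganese, those of the Pb+Mn groups water with both, and those of the control groups water with neither. Exposure lasted 8 weeks, beginning 2 weeks ahead of mating and ending when pups were weaned on postnatal day 21, so the animals were sampled after direct exposure had ended. The labels number the animals of each group but name no litters, and the metals were given to dams, so each p-value rests on differences between single animals, some of which may share a litter. Libraries held 6.27 to 27.6 M counts (median 15.1 M). Markers of CA1, of CA2 and CA3, and of the dentate gyrus were detected in every group, and so were markers of the thalamus and habenula, the choroid plexus and the meninges, which lie against the hippocampus.

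CA1 is the last relay of the hippocampal circuit: its pyramidal neurons are excitatory cells that receive input from CA3 through the Schaffer collaterals and send output to the subiculum and neocortex. In a dissected hippocampus, RNA from CA1 is mixed with that of CA2, CA3, dentate granule cells, interneurons, glia and any attached tissue, so a CA1 marker reads both how much of the RNA came from CA1 and how much each CA1 cell made. In these bulk libraries fewer cells of a type and less RNA per cell cannot be told apart. Some of the 6 genes are also used in other excitatory neurons, Mpped1 and Pou3f1 in the neocortex among them.

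The 6 genes have unrelated products. Wfs1 encodes wolframin, a membrane protein of the endoplasmic reticulum that is lost in Wolfram syndrome. Man1a encodes a Golgi mannosidase that trims N-linked glycans. Gpr161 encodes an orphan receptor of the primary cilium that restrains hedgehog signalling. Fibcd1 encodes a membrane receptor with a fibrinogen-like domain that binds acetylated sugars such as chitin. Mpped1 encodes a protein with a metallophosphoesterase domain. Pou3f1, also called Oct6, encodes a POU-domain transcription factor.

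Since the question was whether the 6 genes vary together, their start regions are shown first. RefSeq's GRCm38.p6 annotation gave start windows for 5 of the 6 genes, 7 windows in all; Pou3f1 had none in the table. Each sequence below is the 250 bases before an annotated start, 5′ to 3′ on the gene's strand, and capitals mark the GC box GGGCGG, read on either strand as GGGCGG or CCGCCC. The windows are Man1a at chr10:54075738-54075987 (minus strand), Mpped1 at chr15:83779773-83780022 (plus), Gpr161 at chr1:165302373-165302622 (plus), Fibcd1 at chr2:31846006-31846255 (minus) and Wfs1 at chr5:36988983-36989232 (minus).
Man1a: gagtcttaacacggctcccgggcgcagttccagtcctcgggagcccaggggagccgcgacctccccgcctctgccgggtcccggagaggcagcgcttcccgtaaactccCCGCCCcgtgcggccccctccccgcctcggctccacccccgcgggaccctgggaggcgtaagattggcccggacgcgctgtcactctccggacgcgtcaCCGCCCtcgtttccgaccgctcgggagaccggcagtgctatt
Mpped1: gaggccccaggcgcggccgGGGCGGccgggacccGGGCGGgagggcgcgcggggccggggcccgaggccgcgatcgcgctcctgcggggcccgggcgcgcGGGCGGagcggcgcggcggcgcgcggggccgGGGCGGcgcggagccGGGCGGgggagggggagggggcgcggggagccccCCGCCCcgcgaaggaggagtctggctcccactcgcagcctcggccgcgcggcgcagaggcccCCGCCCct
Gpr161: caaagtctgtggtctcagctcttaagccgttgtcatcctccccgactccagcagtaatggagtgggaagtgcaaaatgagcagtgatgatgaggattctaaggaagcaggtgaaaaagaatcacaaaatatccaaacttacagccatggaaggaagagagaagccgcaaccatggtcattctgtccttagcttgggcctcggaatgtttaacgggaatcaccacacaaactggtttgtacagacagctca
Fibcd1: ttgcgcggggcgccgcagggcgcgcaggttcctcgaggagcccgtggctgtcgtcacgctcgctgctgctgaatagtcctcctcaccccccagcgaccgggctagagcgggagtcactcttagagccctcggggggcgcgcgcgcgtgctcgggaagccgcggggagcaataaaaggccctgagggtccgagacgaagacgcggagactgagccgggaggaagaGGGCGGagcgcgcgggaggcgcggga
Wfs1: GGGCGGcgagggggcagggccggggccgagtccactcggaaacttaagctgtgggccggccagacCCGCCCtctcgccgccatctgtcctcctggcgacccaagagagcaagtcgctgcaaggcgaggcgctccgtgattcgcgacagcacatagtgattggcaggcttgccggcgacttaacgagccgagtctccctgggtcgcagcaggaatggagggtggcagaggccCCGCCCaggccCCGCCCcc

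The 5 windows differed widely in base composition and shared no motif of those searched. The Mpped1 window was 88.8% G or C with 47 CpG dinucleotides and 7 GC boxes, Man1a 72.4% with 31 and 2, Fibcd1 71.6% with 34 and 1, and Wfs1 69.6% with 23 and 4. The Gpr161 window was 46.8% G or C with 5 CpG dinucleotides and no GC box. Across all 32851 annotated windows of that length the median was 52.4% G or C and 6 CpG dinucleotides, and 32.7% held a GC box. The other annotated starts, at chr15:83784579-83784828 for Mpped1 (46.8% G or C) and chr1:165295516-165295765 for Gpr161 (42.4%), also held no GC box. The octamer ATGCAAAT, which POU proteins can bind, was in none of the 7 windows and in 1.6% of all windows. The cyclic AMP response element TGACGTCA was in none of the 7 (1.55% of all), and the TATA box TATAAA in none (12.4% of all). The E-box CAGATG was in the Wfs1 window shown and in the other Gpr161 window, which is not shown (14.4% of all). All were read on both strands, and none of these motifs contains another. These are matches of letters in short windows and say nothing of what binds there.

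All 6 genes were expressed well above the detection limit; the lowest count of any of them in a library was 233 reads, for Man1a in male control 5. Levels are given in CPM, read counts scaled to a fixed library total (TMM-normalised). Over the 48 libraries the mean was 225 CPM for Mpped1, 204 for Wfs1, 135 for Fibcd1, 92.5 for Pou3f1, 66.02 for Gpr161 and 53.1 for Man1a. Per kilobase of exon, which is the scale on which genes can be compared, Wfs1 (53.7 CPM per kb) and Mpped1 (52.5) were level, followed by Fibcd1 (28.3), Pou3f1 (24.0), Gpr161 (9.48) and Man1a (5.504). Of all genes tested, 5.504 CPM per kb is at percentile 59.0 and 53.7 at percentile 94.9.

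Animals of the same group differed widely in these genes, Wfs1 most. Wfs1 ran from 59.8 CPM in male Pb 4 through a median of 171 to 635 in female Pb 5, a range of 10.6-fold. The ranges of the others were 47.99 to 297 CPM for Fibcd1, 33.0 to 203 for Pou3f1, 28.3 to 121 for Gpr161, 93.1 to 347 for Mpped1 and 25.9 to 94.4 for Man1a. The SD between animals of a group on the log2 scale was 0.67 for Wfs1, above that of 91.5% of the genes tested, 0.51 for Fibcd1 (81.7%) and 0.47 for Pou3f1 (78.3%). It was 0.42 for Gpr161 (73.1%), 0.40 for Man1a (71.2%) and 0.35 for Mpped1 (63.9%).

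In the male controls Wfs1 was at 65.9 CPM in the lowest animal, 160 at the median and 256 in the highest, against 118, 205 and 396 in male Mn, 59.8, 156 and 261 in male Pb, and 75.6, 132 and 263 in male Pb+Mn. In females it was 87.2, 199 and 255 in controls, 119, 284 and 319 in Mn, 95.4, 289 and 635 in Pb, and 115, 168 and 218 in Pb+Mn. Every exposed group overlapped its controls. The mean of female Pb, 308 ± 182 CPM (SD, n = 6), was the highest of the 8 groups, and the mean of male Pb, 157 ± 65.0, and of male Pb+Mn, 157 ± 67.7, the lowest; neighbouring groups in the order differed by less than their SD.

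Mpped1, at a similar level, spread less. Its lowest, median and highest animals were 106, 201 and 247 CPM in male controls, 201, 242 and 278 in male Mn, 145, 239 and 347 in male Pb and 150, 229 and 265 in male Pb+Mn. In females they were 93.1, 208 and 277 in controls, 198, 256 and 295 in Mn, 219, 272 and 300 in Pb, and 188, 206 and 229 in Pb+Mn. The lowest animal of male Mn, of female Mn and of female Pb was thus near the median of its controls.

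Fibcd1 was at 72.2, 113 and 124 CPM (lowest, median, highest) in male controls, 105, 133 and 186 in male Mn, 47.99, 126 and 198 in male Pb and 86.3, 141 and 216 in male Pb+Mn. In females it was at 72.2, 126 and 175 in controls, 96.7, 142 and 202 in Mn, 69.8, 146 and 297 in Pb and 95.9, 137 and 157 in Pb+Mn. The lowest animal of all, male Pb 3, was in the group with the widest relative spread of the males. Pou3f1 was at 33.0, 80.2 and 97.5 CPM in male controls, 64.6, 109 and 127 in male Mn, 41.3, 82.5 and 118 in male Pb and 62.7, 98.5 and 122 in male Pb+Mn. In females it was at 40.1, 81.1 and 129 in controls, 76.1, 92.5 and 128 in Mn, 64.0, 106 and 203 in Pb and 66.4, 90.9 and 120 in Pb+Mn. For both genes the highest of the 48 animals was female Pb 5, and all groups overlapped.

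Gpr161 group means lay between 55.0 ± 16.3 CPM in male controls and 81.2 ± 28.0 in female Pb, and Man1a means between 45.1 ± 12.7 in male controls and 63.4 ± 19.5 in male Mn (SD, n = 6 each). Male controls had the lowest mean for 5 of the 6 genes; for Wfs1 it was male Pb. The plot of levels by group shows the same: spread within each group, overlap of every exposed group with its controls, and a few animals that stand at the same end for several genes.

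**Figure D1:**
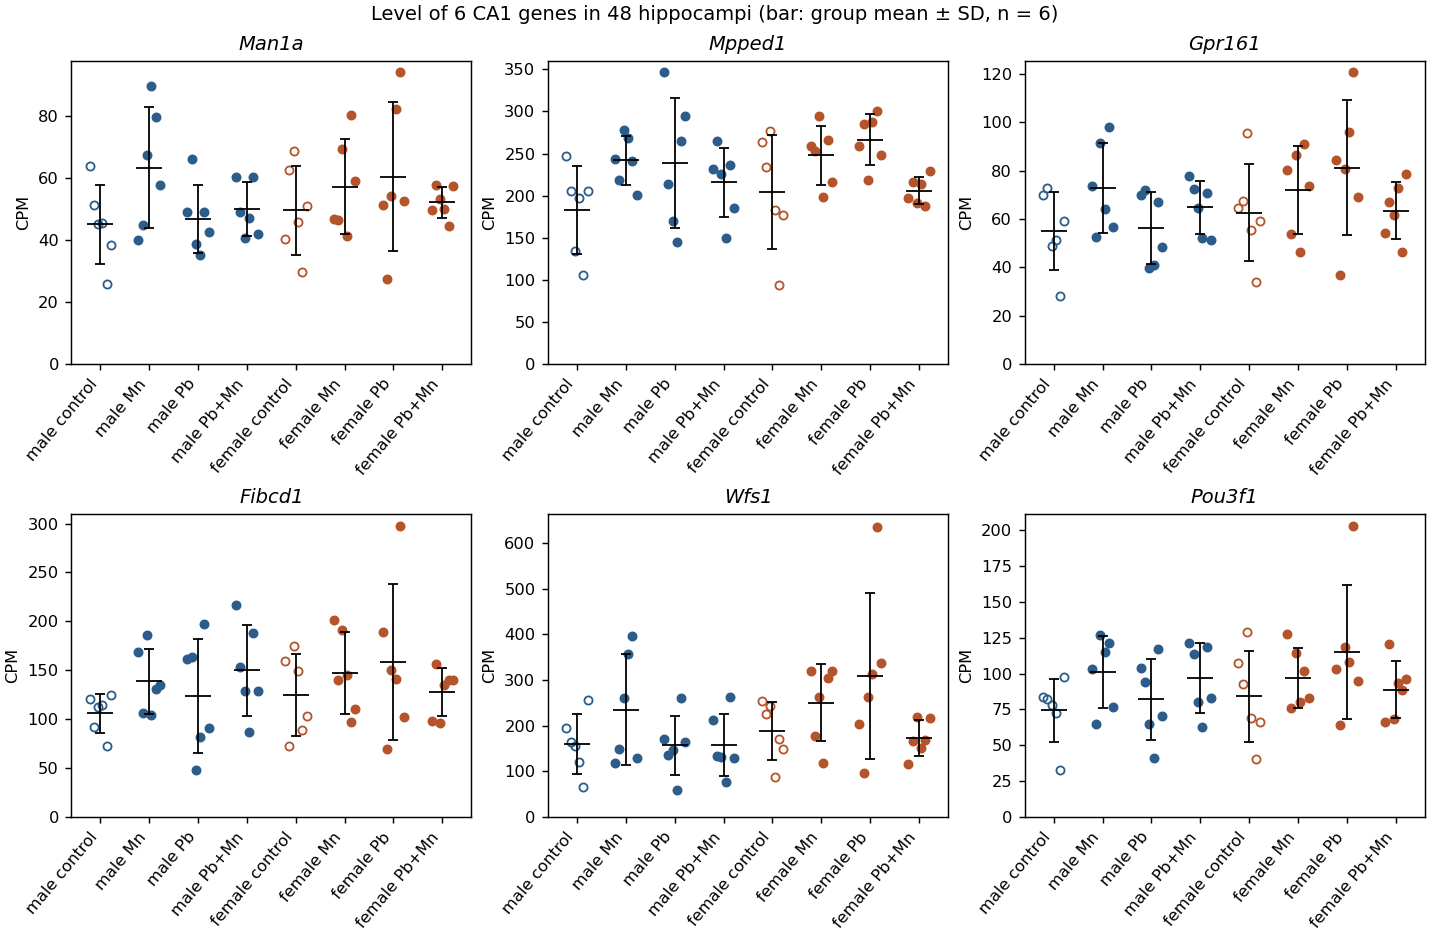
CPM of the 6 CA1 genes (y axis, from 0) in each of the 48 hippocampi by group (x axis); points are animals, open points controls, blue males and orange females, and black bars the group mean ± SD (n = 6). Every exposed group overlaps its controls, and female Pb 5 is the highest animal for Man1a, Gpr161, Fibcd1, Wfs1 and Pou3f1.

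The same animals stood out for most of the genes. Female Pb 5 was the highest of 48 for 5 genes, with 94.4 CPM of Man1a, 121 of Gpr161, 297 of Fibcd1, 635 of Wfs1 and 203 of Pou3f1, and ranked 47 of 48, counted from the lowest, for Mpped1 (300.3 CPM). Male control 5 was the lowest of 48 for Man1a (25.9 CPM), Gpr161 (28.3) and Pou3f1 (33.0), and among the 4 lowest for the other 3. Female control 5 was the lowest for Mpped1 (93.1 CPM) and among the 3 lowest for Gpr161, Pou3f1 and Man1a, while its Wfs1 (171 CPM) ranked 25. Female Pb 2 was near the bottom for 5 genes but held 285 CPM of Mpped1, rank 43. The 6 genes summed to 331 CPM in male control 5 and 1651 CPM in female Pb 5, around a median of 751 CPM.

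**Figure D2:**
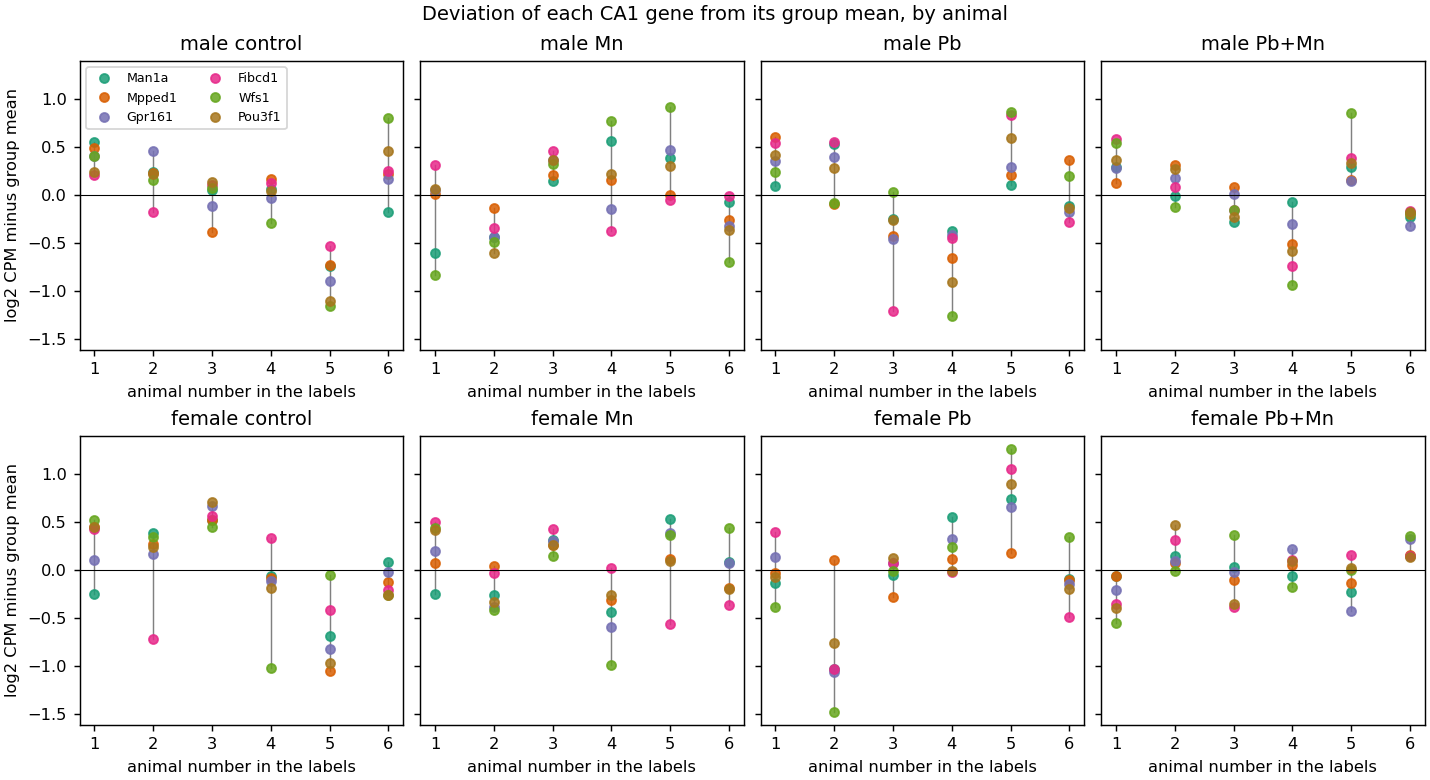
Difference of each gene's log2 CPM from the mean of its group (y axis) for each animal (x axis, the number in the labels), 1 panel a group; colours are genes and grey lines join the extremes of an animal. In male control 5 all 6 genes lie below the group mean and in female Pb 5 all 6 lie above it.

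Within groups the 6 genes went up and down together. Each group's mean was first removed from log2 CPM, so that no difference between group means, by sex or exposure, could enter. Differences in spread between groups remained. All 15 pairs of genes were then positively correlated over the 48 animals. All 15 passed the permutation test (100000 shuffles of animals within groups, two-sided, Benjamini-Hochberg over 15 pairs, threshold 0.05). The median Pearson r was 0.69. Among all pairs of the 16360 tested genes the median r was -0.001. Of these pairs, 1.7% reached the CA1 genes' median and 10.6% reached their lowest r, 0.40.

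Gpr161 and Pou3f1 were the closest pair, with r = 0.85 (Spearman rho 0.80, permutation p = 1e-05, the smallest that 100000 shuffles can give, adjusted p = 1.7e-05). Without the 2 animals farthest from the median of Gpr161, female Pb 2 and male control 5, r was 0.82, and it was 0.88 in males and 0.83 in females. Among all tested genes Pou3f1 ranked 5 in likeness to Gpr161, and Gpr161 ranked 8 in likeness to Pou3f1. Gpr161 and Man1a had r = 0.82 (rho 0.78, permutation p = 1e-05, adjusted p = 1.7e-05, 0.76 without the 2 farthest animals).

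Fibcd1 was the loosest of the 6. Its r was 0.40 with Man1a (rho 0.33, permutation p = 0.015, adjusted p = 0.015), 0.42 with Wfs1 (rho 0.36, permutation p = 0.01, adjusted p = 0.011) and 0.47 with Mpped1 (rho 0.48, permutation p = 0.0028, adjusted p = 0.0032). Without the 2 animals farthest for Man1a, female Pb 2 and female Pb 5, the Man1a and Fibcd1 value dropped to 0.22, so that this relation rests on those animals; without female Pb 2 alone r was 0.29 (adjusted p = 0.067). With Pou3f1, by contrast, Fibcd1 had r = 0.73 (rho 0.76, permutation p = 1e-05, adjusted p = 1.7e-05, 0.73 without the 2 farthest). A pair that shares 1 gene with another pair is not independent of it, and whether the r values of 2 pairs differ was not tested.

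The remaining pairs lay between these. Wfs1 had r = 0.75 with Pou3f1 (rho 0.73), 0.70 with Gpr161 (rho 0.65), 0.69 with Man1a (rho 0.63) and 0.50 with Mpped1 (rho 0.55). Pou3f1 had r = 0.75 with Mpped1 (rho 0.71) and 0.69 with Man1a (rho 0.62). Mpped1 had r = 0.68 with Gpr161 (rho 0.67) and 0.51 with Man1a (rho 0.51), and Gpr161 had 0.64 with Fibcd1 (rho 0.60). Permutation adjusted p-values of these 9 pairs ran from 1.7e-05 to 0.00077, and r without the 2 farthest animals from 0.51 to 0.70. In males alone all 15 pairs passed. In females alone 11 did; Man1a with Fibcd1 (0.39), Mpped1 with Fibcd1 (0.32), Mpped1 with Wfs1 (0.28) and Fibcd1 with Wfs1 (0.38) missed the threshold there. Whether the sexes differ was not tested.

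**Figure D3:**
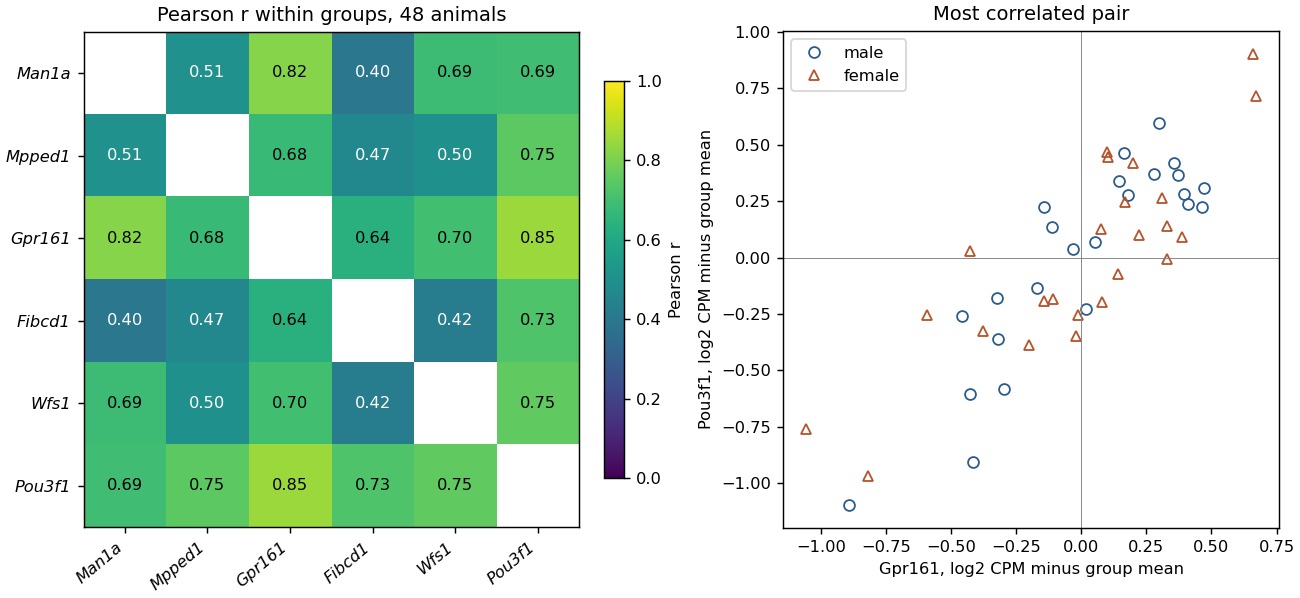
Left, Pearson r of each pair of the 6 genes over 48 animals after removal of group means (colour scale 0 to 1); right, Pou3f1 against Gpr161, each as log2 CPM minus the group mean, with 1 point an animal. All 15 values are positive, from 0.40 for Man1a and Fibcd1 to 0.85 for Gpr161 and Pou3f1.

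Most of this variation lay along 1 common direction. The first principal axis of the 6 standardised genes held 70.6% of their variance and the second 11.7%. In 10 of the 48 animals all 6 genes were above the group mean and in 8 all 6 were below it. Along the first axis, a change of 1 log2 unit in Mpped1 went with 1.31 in Man1a, 1.44 in Fibcd1, 1.53 in Gpr161, 1.78 in Pou3f1 and 2.36 in Wfs1. These slopes describe the 48 libraries, and whether they are equal was not tested.

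The genes were then set against the mean log2 CPM of 14 marker lists, the library total and each library's length trend. That trend is the slope, across genes, of a library's log2 CPM relative to the mean of all libraries on log2 transcript length. The 96 gene and measure pairs were adjusted together, and 32 passed the permutation test. The share of all tested genes that would pass is not given, so the count cannot be called particular to the 6 genes. All 6 genes were positively correlated with markers of excitatory neurons in general (such as Slc17a7, the vesicular glutamate transporter, and Camk2a, a synaptic kinase): Pou3f1 at r = 0.76 (rho 0.75, permutation p = 1e-05, adjusted p = 0.00024), Gpr161 at 0.69, Wfs1 at 0.68, Fibcd1 at 0.59, Man1a at 0.57 and Mpped1 at 0.53, with adjusted p-values up to 0.0056. All 6 were also positively correlated with interneuron markers (Gad1, Sst and others), from 0.40 for Wfs1 (permutation, adjusted p = 0.048) to 0.53 for Pou3f1 (permutation, adjusted p = 0.0079). The interneuron list was mixed in itself, with a median r of 0.19 between its genes; Gad1, which makes GABA, had r = 0.54 with the mean of the 6 and Pvalb, a calcium buffer of fast-spiking interneurons, -0.28.

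With the mean of the 5 other CA1 genes listed for comparison, all 6 had a positive r, with a median of 0.34 against 0.63 for excitatory neurons in general and 0.51 for interneurons. Only Gpr161 (r = 0.46, permutation, adjusted p = 0.0098), Mpped1 (0.43, 0.0084) and Pou3f1 (0.37, 0.04) passed; Man1a was at 0.30, Fibcd1 at 0.24 and Wfs1 at 0.23. The 5 genes of this list did not vary closely together, with a median r of 0.27 between them. Lefty1, at or near 0 in most animals, enters their mean on the log2 scale. How far it sets these r values was not tested. Whether the r values of the lists differ was not tested either, so they do not rank the lists.

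All 6 genes ran opposite to the 14 markers of the thalamus and habenula, which lie under the hippocampus and are marked by genes such as Prkcd, a protein kinase C, and Tcf7l2, a transcription factor. The r was -0.76 for Mpped1 (rho -0.78, permutation p = 1e-05, adjusted p = 0.00024), -0.70 for Pou3f1, -0.66 for Gpr161, -0.50 for Wfs1, -0.48 for Man1a and -0.46 for Fibcd1 (permutation, adjusted p up to 0.0098 for these 5). Without the 2 animals farthest from the median of the list's level the values were -0.71, -0.64, -0.58, -0.48 (Wfs1), -0.38 and -0.42. In males the 6 values ran from -0.75 to -0.53 and in females from -0.77 to -0.36. The list's summed level ran from 137 CPM in male Pb 6 to 1473 CPM in male control 5, the animal lowest for 3 of the CA1 genes, and the second highest was female control 5 at 1190 CPM. Both sides of the relation are shares of the same library totals, and the part that the dissected tissue has in it was not tested.

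Meninges markers were also opposite to Mpped1 (r = -0.63, permutation, adjusted p = 0.00082), Pou3f1 (-0.44, 0.022) and Gpr161 (-0.40, 0.04), and choroid plexus markers to Mpped1 (-0.39, 0.045). Microglia markers went with Fibcd1 (0.50, permutation, adjusted p = 0.011) and Pou3f1 (0.47, 0.015). Markers of oligodendrocytes, astrocytes, endothelium, and neocortex and subiculum passed with none of the 6, with r between -0.35 and 0.32. The last of these lists had r = 0.21 with Mpped1 and -0.20 to -0.06 with the other 5. Its genes had a median r of 0.10 with each other, and those of the endothelium list 0.18. The means of these lists therefore say little of their tissues.

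Lists for other hippocampal regions passed with 1 of the 6 genes each. Dentate granule cell markers passed with Wfs1 (r = 0.46, rho 0.44, permutation p = 0.0039, adjusted p = 0.015) and had r = -0.07 with Mpped1 and 0.30 to 0.39 with the other 4. CA2 and CA3 markers passed, in the opposite direction, with Mpped1 (r = -0.50, rho -0.58, permutation p = 0.00044, adjusted p = 0.0044) and had r between -0.30 and 0.003 with the others. The genes of the CA2 and CA3 list did not vary as 1 group: the median r between them was -0.025, and with the mean of the 6 CA1 genes Rgs14, a regulator of G-protein signalling, had r = 0.69, Necab2, a calcium-binding protein, -0.57 and Coch, cochlin, -0.65. The mean of that list therefore says little of those regions.

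Library measures touched 2 of the genes. Man1a, the gene with the greatest total exon length of the 6 (9.65 kb), went with the length trend (r = 0.54, permutation, adjusted p = 0.0092). It went against cytosolic ribosomal protein genes (r = -0.53, permutation, adjusted p = 0.011). Gpr161 (6.96 kb) went with the length trend (r = 0.45, permutation, adjusted p = 0.04). The library total passed with none, with r between -0.07 and 0.18. Female Pb 5 held the lowest summed level of the 21 ribosomal protein genes of all 48 libraries (3915 CPM), and female Pb 2 the highest (13640 CPM, median 5147). With the length trend held constant, all 15 pairs still passed and their median r was 0.68.

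**Figure D4:**
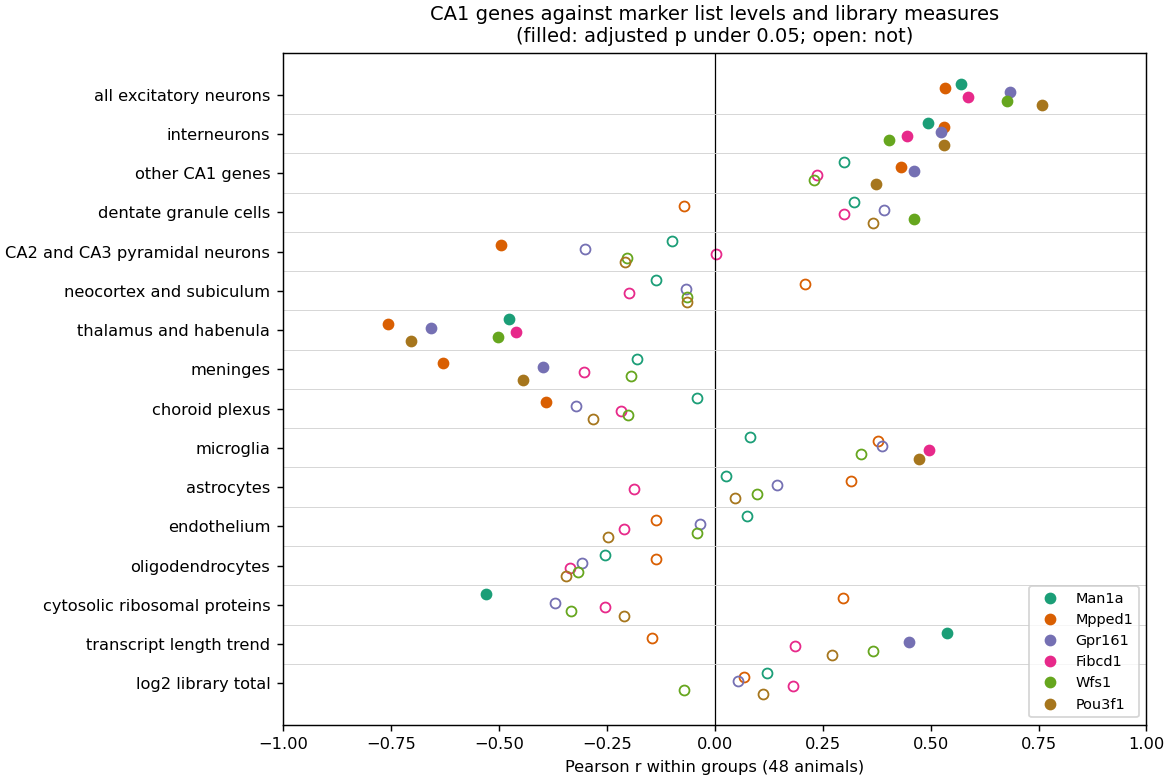
Pearson r (x axis, from -1 to 1) of each of the 6 genes with the mean level of 14 marker lists and 2 library measures (rows) over 48 animals, group means removed; filled points passed at an adjusted p under 0.05. All 6 points are filled and positive for excitatory neurons and interneurons, and filled and negative for the thalamus and habenula.

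With the thalamus and habenula level held constant, the median r of the 15 pairs was 0.50 and 10 pairs passed; with the excitatory neuron level held constant it was 0.49 and again 10 passed. The pairs lost were the same 5 in both cases, Man1a with Mpped1, and Man1a, Mpped1 and Wfs1 each with Fibcd1, and Mpped1 with Wfs1. With the dentate level held constant the median was 0.64 and with the neocortex and subiculum level 0.69, and all 15 pairs passed. The genes of the neocortex and subiculum list had a median r of only 0.10 with each other. Holding their mean constant therefore says little of those regions. Without female Pb 5, male control 5 and female control 5 together the median was 0.57 and 13 pairs passed.

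Other CA1 genes, listed for comparison, joined the 6 to different degrees. Tyro3, a receptor tyrosine kinase, had r = 0.55 with the mean of the 6. Ccn3, a secreted matrix protein, had r = 0.34, Spink8, a protease inhibitor, 0.20, and Lefty1, a secreted antagonist of nodal signalling, 0.17. The 5 genes of that list had a median r of 0.27 with each other, against 0.69 for the 6. Markers of excitatory neurons in general had 0.74, of the meninges 0.70 and of oligodendrocytes 0.68. Markers of the thalamus and habenula and of the choroid plexus had 0.91, and cytosolic ribosomal protein genes 0.94. The remaining lists had -0.025 to 0.47. Lefty1 was at or near 0 in most animals and reached 13.1 CPM in male Pb and 13.0 in female Pb. The mean log2 CPM of the 5 other CA1 genes, Lefty1 among them, was 5.30 in male Pb 6. It was also 5.24 in male Mn 5 and 4.83 in female Pb+Mn 6, against at most 3.90 in controls.

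Among the 8 genes most like the mean of the 6, by Pearson r over the 48 animals, were Fam189a1 (0.92), Cpne8, a copine (0.92), Hunk, a protein kinase (0.88), Plk2, a polo-like kinase (0.87), Dab1, the adaptor of reelin receptors (0.86), Plcl2, a phospholipase C-like protein (0.85), and Camk1g, a calmodulin-dependent kinase (0.85). The 5 most opposite were Dbndd1 (-0.84), Pcp4, a calmodulin regulator (-0.83), Pdp1, a pyruvate dehydrogenase phosphatase (-0.82), Gjc1, a connexin (-0.80), and Camk2n2, an inhibitor of calmodulin-dependent kinase II (-0.80). Fam189a1 was closest to Pou3f1 (0.90) and Gpr161 (0.89), Cpne8 to Pou3f1 (0.88), and Camk2n2 most opposite to Man1a (-0.86). They were picked for their r out of 16360 genes, and the values carry no test.

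No CA1 gene passed the test of exposure against control in either sex: 0 of 6 genes in each of 6 comparisons (quasi-likelihood test of edgeR, Benjamini-Hochberg over 16360 genes, threshold 0.05), where 0% of all genes were called. DESeq2 and limma voom also called 0 of the 6. Counted at an unadjusted p under 0.05, where 2.25% of all genes fell in male Mn, 12.5% in male Pb, 2.93% in male Pb+Mn, 2.62% in female Mn, 2.18% in female Pb and 1.64% in female Pb+Mn, there were 2 CA1 genes in male Mn (Man1a and Mpped1), 1 in male Pb (Mpped1), 2 in female Pb (Wfs1 and Mpped1) and none in the others. Since the 6 genes vary together, these are not separate observations. No CA1 gene separated an exposed group from its controls without overlap (0.11% of all genes did in male Mn, 0.202% in male Pb, 0.177% in male Pb+Mn, 0.0856% in female Mn, 0.0306% in female Pb and 0.0733% in female Pb+Mn).

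Male Mn had all 6 genes at a positive log2 fold change, with a median of 0.43 against -0.0061 for all genes. Man1a was at 63.4 against 45.1 CPM in controls (log2 fold change 0.49 ± 0.22 (SE); edgeR, adjusted p = 1.00), with 4 of 6 Mn animals above the control mean. Mpped1 was at 242 ± 29.1 against 182 ± 52.3 CPM (0.41 ± 0.19; edgeR, adjusted p = 1.00), with 6 of 6 above it. The others were at 0.57 ± 0.35 (Wfs1), 0.45 ± 0.25 (Pou3f1), 0.41 ± 0.22 (Gpr161) and 0.39 ± 0.27 (Fibcd1). Without male control 5 the median was 0.30, with Gpr161 at 0.27 and Pou3f1 at 0.30, and no gene was under the unadjusted threshold; without male Mn 5 Wfs1 was at 0.35. The thalamus and habenula list summed to 187 to 1473 CPM in male controls (median 587) and 217 to 853 CPM in male Mn (median 226). With that level, centred on each group, as a covariate, which removes its variation within groups only, the median was 0.44 and 4 genes were under the unadjusted threshold. With the level not centred, a fit chosen after seeing the data that also takes up its difference between groups, the median was 0.25, and Mpped1, the only gene then under that threshold, was at 0.27.

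Female Pb also had all 6 genes at a positive log2 fold change, with a median of 0.38 against 0.0074 for all genes. Wfs1 was at 308 ± 182 against 188 ± 64.5 CPM (0.71 ± 0.35; edgeR, adjusted p = 1.00), with 5 of 6 animals above the control mean, and Mpped1 at 266 ± 30.5 against 204 ± 68.1 CPM (0.38 ± 0.19; edgeR, adjusted p = 1.00), with 6 of 6. Pou3f1 was at 0.45 ± 0.25, Gpr161 at 0.38 ± 0.22, Fibcd1 at 0.35 ± 0.27 and Man1a at 0.28 ± 0.22. Much of the size rested on female Pb 5: without it Wfs1 was at 0.37, Gpr161 at 0.23, Pou3f1 at 0.22, Man1a at 0.11 and Fibcd1 at 0.07, and the median was 0.22. The thalamus and habenula list summed to 214 to 1190 CPM in female controls and 201 to 630 CPM in female Pb, with that of Pb 5 at 259 CPM. With the centred level as a covariate the median was 0.43 and 4 genes were under the unadjusted threshold; with the level not centred it was 0.28 and 1 gene was.

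In male Pb the values of the 6 genes were uneven, with a median of 0.10. Mpped1 was at 239 ± 77.2 against 182 ± 52.3 CPM (0.39 ± 0.19; edgeR, adjusted p = 0.39), with 4 of 6 animals above the control mean, while Wfs1 (-0.02 ± 0.35), Gpr161 (0.04 ± 0.22) and Man1a (0.06 ± 0.22) lay at 0 within their errors and Fibcd1 was at 0.23 ± 0.27 and Pou3f1 at 0.15 ± 0.25. The 21 ribosomal protein genes summed to 4914 to 13114 CPM in male Pb (mean 7596) against 4702 to 6288 CPM in male controls (mean 5195), and their part in these values was not tested. With the length trend as a covariate the median was 0.255, all 6 values were positive and no gene was under the unadjusted threshold, Mpped1 being at 0.35. With the thalamus and habenula level not centred the median was 0.010.

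Male Pb+Mn had Fibcd1 at 0.51 ± 0.27, Pou3f1 at 0.39 ± 0.25, Mpped1 and Gpr161 at 0.24, Man1a at 0.15 and Wfs1 at -0.02. Female Mn had 6 positive values, from 0.20 (Man1a and Gpr161) to 0.41 ± 0.35 (Wfs1), with a median of 0.23, or 0.13 with the thalamus and habenula level not centred as a covariate. Female Pb+Mn had a median of 0.025 (-0.03 with the length trend as a covariate), with values from -0.12 (Wfs1) to 0.08 (Pou3f1). The 3 exposures of a sex share their control animals, so male control 5 and female control 5, which stand low for most of the genes, each enter all 3 values of their sex. Without male control 5 the medians of male Pb and male Pb+Mn were -0.03 and 0.12, and without female control 5 the median was 0.11 in female Mn, 0.27 in female Pb and -0.08 in female Pb+Mn.

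**Figure D5:**
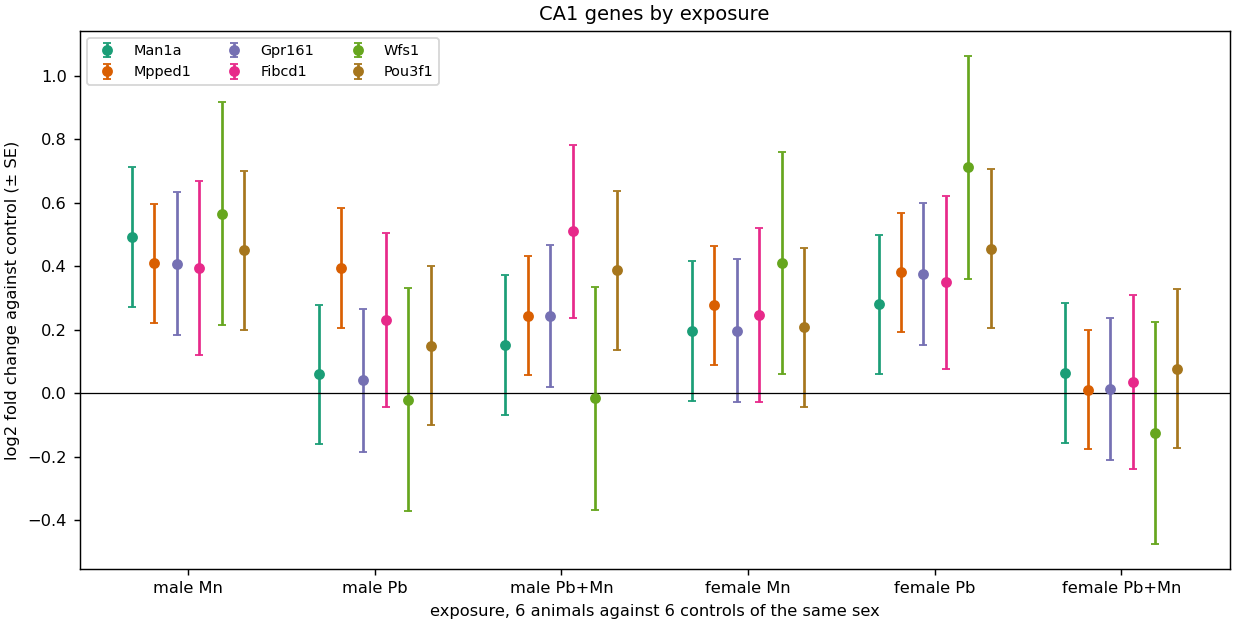
Log2 fold change ± SE (y axis) of the 6 genes in each exposure against the controls of the same sex (x axis), 6 animals against 6; colours are genes. All 6 values are above 0 in male Mn, female Mn and female Pb; in female Pb+Mn the values run from -0.12 to 0.08, and no gene passed the test in any of the 6 comparisons.

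In both sexes the value of the combination lay below the sum of the single metals for every gene, although no interaction passed the test. The Pb by Mn interaction is the difference between the log2 fold change of the combination and the sum of those of the single metals. It was negative for all 6 genes in both sexes. Since the 6 genes vary together, these are not separate observations. Across all genes the interaction was positive for 49.3% in males and 48.6% in females. In females it was -1.25 ± 0.50 for Wfs1 (edgeR, adjusted p = 0.99) and -0.65 ± 0.26 for Mpped1 (edgeR, adjusted p = 0.99), with the other 4 between -0.59 and -0.41. In males it was -0.56 ± 0.26 for Mpped1 (edgeR, adjusted p = 0.35), -0.56 ± 0.50 for Wfs1 and -0.40 to -0.12 for the others. At an unadjusted p under 0.05 were Wfs1 and Mpped1 in females, where 3.09% of all genes were, and Mpped1 in males, where 13.7% were. The controls, male control 5 and female control 5 among them, enter this value with a positive sign. The single metals enter it with a negative sign, female Pb 5 among them in females. Without female Pb 5 the log2 fold change of Wfs1 in female Pb was 0.37 in place of 0.71.

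Against Pb alone, female Pb+Mn had all 6 genes lower in value, Wfs1 most (173 ± 39.5 against 308 ± 182 CPM, -0.84 ± 0.35; edgeR, adjusted p = 0.95, with 6 of 6 animals below the Pb mean); 3.83% of all genes were under the unadjusted threshold. Female Pb 5, at 635 CPM, enters the Wfs1 mean of female Pb. Female Pb+Mn against Mn had values from -0.54 (Wfs1) to -0.13, male Pb+Mn against Mn from -0.58 (Wfs1) to 0.12 (Fibcd1), and male Pb+Mn against Pb from -0.15 (Mpped1) to 0.28 (Fibcd1), none under the unadjusted threshold, under which stood 2.55%, 4.03% and 23.8% of all genes.

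Sex made no called difference either. In controls all 6 genes had a higher mean in females, by 0.15 (Man1a) to 0.24 ± 0.35 (Wfs1) on the log2 scale, with no gene at an unadjusted p under 0.05 (1.31% of all genes); 0.0428% of all genes passed the adjusted threshold. The sex by Mn difference ran from -0.30 (Man1a) to -0.13 (Mpped1), the sex by Pb difference from -0.01 (Mpped1) to 0.73 ± 0.50 (Wfs1) and the sex by Pb+Mn difference from -0.47 ± 0.39 (Fibcd1) to -0.09 (Man1a), with no gene under the unadjusted threshold, under which stood 0.954%, 2.07% and 0.789% of all genes. In the test of any difference among the 8 groups, which 0.104% of all genes passed, Wfs1 was the only one of the 6 at an unadjusted p under 0.05 (edgeR, adjusted p = 0.70; 7.05% of all genes were), and the other 5 had adjusted p-values of 0.71 to 0.88.

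The other 5 CA1 genes, also compared in each exposure, passed in none. Counted at an unadjusted p under 0.05 there were 3 in male Mn (2.25% of all genes were), 2 in male Pb (12.5%) and 2 in female Pb (2.18%). In male Mn, Ccn3 was at 84.7 ± 33.5 against 51.5 ± 11.3 CPM (0.72 ± 0.26; edgeR, adjusted p = 1.00) and Tyro3 at 99.8 ± 15.3 against 84.6 ± 16.2 CPM (0.24 ± 0.12; edgeR, adjusted p = 1.00). In male Pb, Spink8 was at 40.4 ± 36.9 against 19.97 ± 11.4 CPM (1.03 ± 0.37; edgeR, adjusted p = 0.34), with 3 of 6 animals above the control mean. Lefty1 had a median of 0 CPM in both control groups, and its fitted fold changes carry no meaning as sizes.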

How the data were processed

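Hippocampal RNA of 48 mice was sequenced as stranded, poly(A)-selected libraries in paired reads, per the labels' protocols. The values are whole-number read counts per gene, not normalised, as the authors deposited them. Per the submitters' processing notes, the tools included Trim Galore 0.6.9, STAR 2.7.10b and featureCounts 2.0.6 with build GRCm39; strand and multi-mapping settings are not given in the sources used here. Of 57126 identifiers, 51884 matched a symbol, holding 99.52% of the counts. GENCODE M21 served for names and exon lengths only.

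Genes kept by filterByExpr (16360) were fitted over all 48 libraries with edgeR 4.0.16 (R 4.3.3; TMM, glmQLFit and glmQLFTest, a term per group, two-sided). SEs were derived from the fold change and its F statistic and are approximate. Correlations used log2 CPM with a prior count of 2, group means removed, and 100000 shuffles within groups. DESeq2 1.42.0 and limma 3.58.1 gave alternatives. Any pair of libraries within a group had a chi-square of 8.9 or more per degree of freedom, so none was a repeat. The scripts were tested on simulated data. The 6 genes and all lists were chosen with earlier results of these data known. The genes named are the 6, the other CA1 genes, and the 8 most alike and 5 most opposite by r, besides genes named to explain a list. One gene that this rule would name is not reported here.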

Additional observations from a re-analysis of the deposited data

How the results depend on the processing

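Under every alternative run, 0 of the 6 genes passed in any comparison; the smallest adjusted p was 0.13. The covariates not centred on groups, the older form of edgeR's quasi-likelihood fit, the fit without 3 animals together and the value given the neocortex and subiculum level were chosen after seeing the data. Among the pairs, the median r moved from 0.69 to 0.50 given the thalamus and habenula level and to 0.49 given the excitatory neuron level. Leaving out 1 animal at a time gave a median r of 0.64 to 0.70, 14 to 15 pairs, and 26 to 37 gene and measure pairs in place of 32; males alone gave 10 and females alone 15 of these. With the replicate number as a block, 0 genes, 15 pairs (median r 0.72) and 27 gene and measure pairs passed. Same-numbered animals of 2 groups were compared by the r, across genes, of their deviations from the group means. In female against male controls 5 of 6 such pairs had r over 0.1, and in male Pb+Mn against Pb and against Mn 4 of 6. In the other comparisons 0 to 3 of 6 did. In male Pb+Mn against Mn, 4 of 6 animals had their highest r with their own number, against 0 to 2 elsewhere. Whether the numbers mark a shared batch was not tested.

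Some values, from -0.12 to 0.23 in the main fit, changed sign. In male Pb, Gpr161 (0.04) was at -0.05 with the uncentred thalamus and habenula covariate and -0.02 with limma voom library weights, Man1a (0.06) at -0.01 with that covariate, and Fibcd1 (0.23) at -0.07 with the weights. Wfs1 (-0.02) was at 0.19 with the length trend, 0.02 with the centred thalamus and habenula covariate and 0.12 with the excitatory neuron covariate. In male Pb+Mn, Wfs1 (-0.02) was at 0.07 with the centred covariate. In female Pb+Mn, with the length trend, Gpr161 was at -0.08, Fibcd1 and Man1a at -0.03 and Pou3f1 at -0.0033, and Wfs1 at 0.03 with the weights. Leaving out 1 animal gave, in male Pb, -0.09 to 0.14 (Gpr161), -0.22 to 0.16 (Wfs1) and -0.06 to 0.18 (Man1a). It gave -0.23 to 0.17 for Wfs1 in male Pb+Mn. In female Pb+Mn it gave -0.10 to 0.15 (Gpr161), -0.10 to 0.14 (Fibcd1), -0.06 to 0.22 (Pou3f1), -0.04 to 0.16 (Man1a) and -0.13 to 0.10 (Mpped1). The cause was not tested. With 6 animals a group, the SE of 0.19 to 0.35 limits what could be detected.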
